A study of Mus musculus with 20 samples.

Results

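Genes of fatty acid synthesis, elongation, desaturation, acyl-CoA activation and glycerolipid assembly were followed in leukemic mouse spleens after conditional knockout of Acly. The 35 genes were taken by symbol from a list of the pathway's enzymes, factors and a carrier. All 35 were listed in both deposited tables, among 26099 genes in the acute table and 26486 in the survival table. RNA for the 20 libraries came from spleens of sub-lethally irradiated mice. These had been injected intravenously with mouse T-cell acute lymphoblastic leukemia (T-ALL) carrying a conditional Acly allele, so every group had the same leukemia model, transplant and irradiation. In the acute arm, 4 KO libraries came from overtly leukemic mice given tamoxifen (3 mg per mouse in corn oil, by intraperitoneal injection) and 6 WT libraries from mice given corn oil alone, and all were collected 72 h later. In the survival arm, 5 KO libraries came from mice given tamoxifen and 5 WT libraries from mice given corn oil 48 h after transplantation, and collection was at the humane endpoint. WT therefore means an undeleted conditional leukemia without tamoxifen, and tamoxifen and the deletion cannot be told apart. The labels name neither the Cre driver nor the deleted exons, nor the ages of the mice, the number of independent leukemias or whether each library was a separate mouse, so p-values measure the spread between libraries, which may be technical in part. The cell suspension was filtered and freed of red cells, with no sort named, so each value is the RNA of leukemic and host spleen cells together.

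ATP-citrate lyase, the product of Acly, cleaves cytosolic citrate to acetyl-CoA and oxaloacetate. Acetyl-CoA carboxylase turns that acetyl-CoA into malonyl-CoA, and fatty acid synthase builds palmitate from it with reducing power from NADPH. Elongases (Elovl) lengthen acyl chains, stearoyl-CoA and front-end desaturases (Scd, Fads) add double bonds, and acyl-CoA synthetases (Acsl) activate free fatty acids. Acyltransferases (Gpam, Agpat), phosphatidate phosphatases (lipins) and Dgat enzymes then build phosphatidic acid, diacylglycerol and triglyceride, while Lpcat enzymes put acyl chains back on lysophosphatidylcholine. SREBP transcription factors, made from Srebf1 and Srebf2, activate many of these genes when their membrane-bound precursors are cleaved. In a spleen, lymphoid blasts share the tissue with neutrophils, monocytes, macrophages and B cells, each with its own use of these enzymes.

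Promoters are shown for 4 of the members with higher RNA in acute KO spleens, because these moved together and their windows hold motifs of lipogenic or general promoter factors. Windows of 250 bases before to 50 after a gene start were taken from RefSeq (build GRCm38.p6, used here for these windows only) and matched 28 of the 35 members in 41 windows. Scd1, Scd2, Elovl3, Fads1, Dgat1, Dgat2 and Fabp5 were not matched. Searched on both strands, with overlapping matches counted, were the sterol regulatory element TCACNCCAC, the NF-Y box CCAAT, the E-box CACGTG, the GC box GGGCGG and a direct repeat of AGGTCA with any 4 bases between. Letters in capitals mark any of these motifs on either strand, and sequences run along the strand of the gene.
Elovl7, chr13:108214154-108214453, plus strand: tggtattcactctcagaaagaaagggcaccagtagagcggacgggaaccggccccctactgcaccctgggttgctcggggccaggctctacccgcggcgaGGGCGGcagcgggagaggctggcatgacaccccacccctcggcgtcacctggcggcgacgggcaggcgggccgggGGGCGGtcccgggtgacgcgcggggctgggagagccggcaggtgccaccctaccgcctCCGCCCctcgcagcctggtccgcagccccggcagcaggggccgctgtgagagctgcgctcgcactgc
Agpat2, chr2:26604368-26604667, minus strand: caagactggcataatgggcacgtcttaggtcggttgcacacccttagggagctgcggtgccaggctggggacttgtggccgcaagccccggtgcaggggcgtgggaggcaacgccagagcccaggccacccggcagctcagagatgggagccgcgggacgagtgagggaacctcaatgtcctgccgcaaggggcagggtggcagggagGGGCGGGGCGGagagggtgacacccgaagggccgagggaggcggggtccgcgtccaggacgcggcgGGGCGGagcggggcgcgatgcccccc
Lpcat2, chr8:92855083-92855382, plus strand: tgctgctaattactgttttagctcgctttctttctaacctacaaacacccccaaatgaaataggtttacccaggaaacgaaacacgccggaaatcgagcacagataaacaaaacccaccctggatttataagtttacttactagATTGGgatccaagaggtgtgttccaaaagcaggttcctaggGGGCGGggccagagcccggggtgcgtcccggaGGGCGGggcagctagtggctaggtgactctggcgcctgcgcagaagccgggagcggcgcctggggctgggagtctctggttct
Acsl1 at one start, chr8:46470787-46471086, plus strand: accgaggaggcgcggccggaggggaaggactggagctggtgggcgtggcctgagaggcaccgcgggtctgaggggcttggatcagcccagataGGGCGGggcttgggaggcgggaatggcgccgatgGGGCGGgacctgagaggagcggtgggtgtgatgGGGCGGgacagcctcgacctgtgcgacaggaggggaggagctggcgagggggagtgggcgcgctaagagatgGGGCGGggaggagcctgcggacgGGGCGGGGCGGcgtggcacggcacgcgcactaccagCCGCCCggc
Acsl1 at the other start, chr8:46490716-46491015, plus strand: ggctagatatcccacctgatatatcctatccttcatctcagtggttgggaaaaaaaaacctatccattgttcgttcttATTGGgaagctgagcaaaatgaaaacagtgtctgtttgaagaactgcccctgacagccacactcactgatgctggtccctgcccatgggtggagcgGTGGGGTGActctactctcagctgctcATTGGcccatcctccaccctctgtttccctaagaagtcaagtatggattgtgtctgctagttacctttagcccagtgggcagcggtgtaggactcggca
Elovl7 and Agpat2 show 3 GC boxes each, overlapping in part in Agpat2. Lpcat2 shows 2 GC boxes and 1 NF-Y box. Of the 2 Acsl1 windows, the one at 46470787 shows 7 GC boxes, some overlapping, and none of the other motifs. The one at 46490716 shows no GC box: there, a sterol regulatory element on the opposite strand starts 76 bases before the gene start, with NF-Y boxes starting 172 and 49 bases before it. Window by window, sterol regulatory element letters stood in 2 of the 41 member windows (4.88%, those of Mlxipl and Acsl1) and in 1.24% of all 32851 windows. GC box letters stood in 26 member windows (63.4%) and 35.7% of all windows. By member, at least 1 window held them for 20 of 28, among these the 6 matched members that were higher in acute KO spleens and 2 of the 3 matched ones that were lower. NF-Y box letters stood in 20 member windows (48.8%) and 37.4% of all windows. E-box letters stood in 4 member windows (9.76%) and 7.15% of all windows, and the direct repeat in 0 member windows and 0.0152% of all windows. These matches are descriptions of the letters and show no binding.

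Values below are DESeq-normalized counts as deposited. No scaling for transcript length was named, so levels are compared between libraries and not between genes. Library totals were 19432235 to 20731983 in the acute table and 19998354 to 21623571 in the survival table. The depth in reads could not be recovered. Acly RNA had 5226, 6228, 6402 and 4823 normalized counts in acute KO libraries 1 to 4, against 7406 at the lowest, 7633 at the median and 8279.6 at the highest in the 6 acute WT libraries. In the survival arm it had 4017, 2174, 3523, 3025 and 2718 in KO libraries 1 to 5, against 7922, 7758, 7396, 7544 and 8825 in WT libraries 1 to 5. All KO libraries lay below all WT libraries in each arm, as their labels imply, and none was near 0. Acly averaged 5670.0 ± 766 in acute KO and 7735 ± 298 in acute WT libraries (SD, n = 4 and 6; log2 fold change -0.46, SE 0.0747, limma adjusted p = 0.000866, and p = 0.00476 by an exact 2-sided permutation test, the lowest its 210 arrangements allow). It averaged 3091 ± 712 in survival KO and 7889 ± 561 in survival WT libraries (SD, n = 5 each; log2 fold change -1.38, SE 0.131, limma adjusted p = 0.0016, and p = 0.00794 by the same exact permutation test, the lowest its 252 arrangements allow). The acute fall did not pass after scaling to the T-cell receptor genes Trbc1 and Trbc2 (-0.08, limma adjusted p = 0.652) or when a host-cell score, described next, was added to the fit (-0.78, limma adjusted p = 0.791).

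The acute KO libraries stood apart in markers of host cells. All 15 neutrophil markers were called higher in acute KO spleens, with a summed level of 182600 to 616726 normalized counts in KO libraries and 12214 to 50422 in WT libraries. So were 15 of 16 monocyte and macrophage markers (22990 to 67071 in KO, 5029 to 8243 in WT), 12 of 12 B-cell markers (2995 to 6768 in KO, 1274 to 2386 in WT), 5 of 6 tested plasma-cell markers (4945 to 8131 in KO, 2972 to 3530 in WT), 6 of 6 tested NK and cytotoxic markers (497 to 1410 in KO, 124 to 247 in WT) and 3 of 6 tested dendritic markers (293 to 629 in KO, 135 to 242 in WT). T-cell markers, which define the leukemia, were called lower for 17 of 20 (180993 to 241436 in KO, 272270 to 280824 in WT), and 0 of 13 erythroid markers were called (4 at an unadjusted p under 0.05). Of the tested megakaryocyte and platelet markers 2 of 5 were called higher, and of the stroma, endothelium and adipocyte markers 1 of 7. In the latter list the adipocyte markers Adipoq and Plin1 stayed under 10 in every library. No marker listed in the deposited tables was at 0 in every library. Of the dendritic markers 7 of 8 were listed there, and of the stroma, endothelium and adipocyte markers 10 of 11. A host-cell score, the mean centred log2 level of the first 6 of these lists, was 0.606, 1.77, 1.50 and 0.933 in acute KO libraries 1 to 4 and -1.15 to -0.283 in acute WT libraries. In the survival arm limma called 0 of 105 tested markers (16 at an unadjusted p under 0.05), and the score spanned -0.441 to 0.466 in KO and -0.0224 to 0.219 in WT libraries. In bulk RNA, fewer cells of a type and less RNA per cell cannot be told apart.

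In the acute arm, the lipid genes moved in both directions. Dgat2, Lpcat2, Agpat2 and Dgat1, enzymes of triglyceride and phospholipid assembly, were 9.75-fold, 9.06-fold, 6.2-fold and 3.4-fold higher in KO spleens, and the elongase Elovl7 and the acyl-CoA synthetase Acsl1 were 5.57-fold and 3.18-fold higher. Scd2, Acsl3, Gpam, Agpat3 and Fabp5 fell by less than 2-fold, the first 4 of which had positive fold changes, none called, after the T-cell receptor scaling. Fasn, Acaca and Srebf1 were not called. Fold changes are on the log2(normalized count + 1) scale, which understates those of low genes. Of the 35 members, 32 passed the filter on low values (10 normalized counts in at least 4 libraries), and limma called 14 of them (43.8%) at a Benjamini-Hochberg adjusted p under 0.05, where 31.4% of all 16363 genes tested were called. Of the 32, 9 were higher in KO spleens (28.1%, background 16.7%) and 5 were lower (15.6%, background 14.7%). By at least 2-fold, 6 were higher (18.8%, background 8.29%) and 0 were lower (background 0.428%). KO and WT libraries did not overlap for 12 of the 32 members (37.5%, background 22.7%), with KO above WT for 8 (background 12.7%) and below WT for 4 (background 9.94%). The median log2 fold change of the 32 was -0.02, against -0.02 over all genes tested. The 18 members not called had log2 fold changes of -0.55 to 0.19. After scaling to Trbc1 and Trbc2, which moved the median of all genes up by 0.37 on the log2 scale, 19 of the 32 members were called higher (background 44.9%) and 1 lower (background 0.56%). With the score as a covariate limma called 0 members and 0 of 16363 genes (1 member and 980 genes at an unadjusted p under 0.05).

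**Figure D1:**
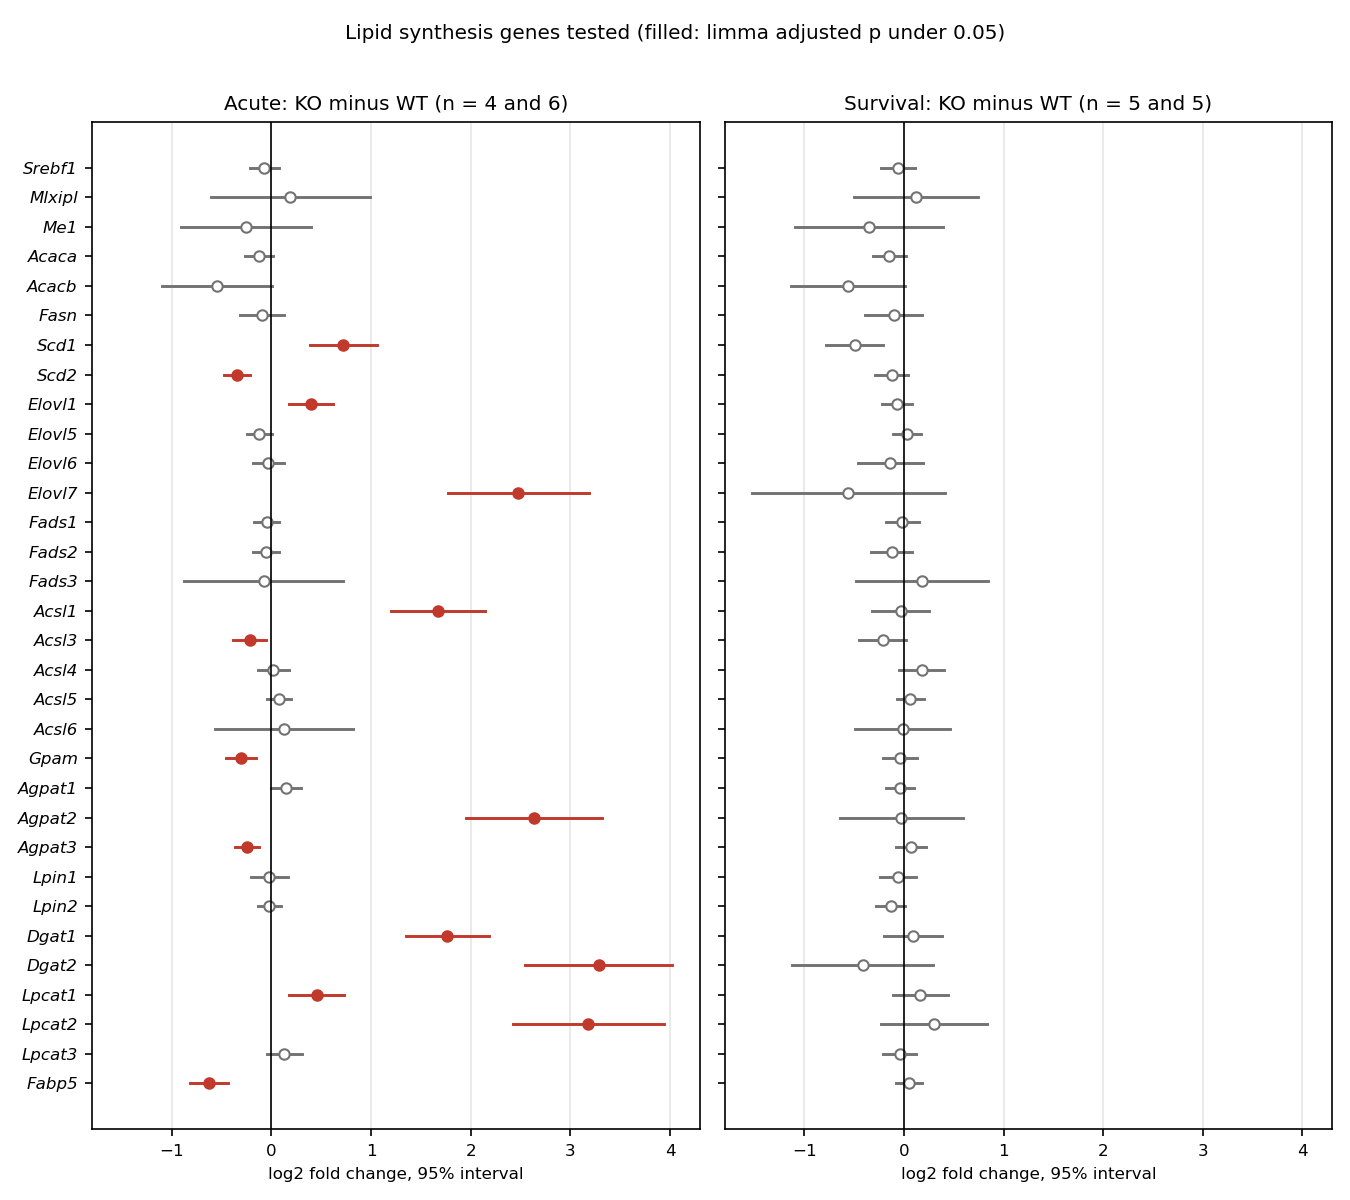
Log2 fold change with its 95% interval for the 32 members tested, KO minus WT, in the acute arm (left, n = 4 and 6) and the survival arm (right, n = 5 and 5), with filled red points where the limma adjusted p is under 0.05. In the acute arm 9 filled points lie to the right and 5 to the left of 0. Of the 18 open points there, 6 lie to the right and 12 to the left. Of the 5 filled points on the left, Scd2, Acsl3, Gpam and Agpat3 have positive fold changes, not called, after scaling to Trbc1 and Trbc2. In the survival arm 0 points are filled.

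Among regulators and suppliers, neither the lipogenic transcription factors nor malic enzyme was called in the acute arm. Srebf1, which encodes SREBP-1 precursors, averaged 2025 ± 143 normalized counts in KO and 2128 ± 162 in WT libraries (SD, n = 4 and 6; log2 fold change -0.07, 95% interval -0.21 to 0.07). The groups overlapped. Mlxipl, which encodes the carbohydrate-responsive factor ChREBP, was close to the filter, with 7.37 to 15.3 in KO and 6.21 to 15.9 in WT libraries, and its interval was wide (-0.61 to 0.99). Me1, the cytosolic malic enzyme that yields NADPH, was also low, with 12.7 to 17.2 in KO and 13.7 to 37.0 in WT libraries, the highest WT value coming from library 1.

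None of the 3 genes of palmitate synthesis was called. Fasn, fatty acid synthase, had 7552, 6394, 8058 and 6296 normalized counts in acute KO libraries 1 to 4, against 6722 at the lowest, 7344 at the median and 9531 at the highest in acute WT libraries. The groups overlapped, and WT library 1 was the highest of all 10. Its log2 fold change was -0.10 (SE 0.101, 95% interval -0.32 to 0.12, limma adjusted p = 0.511). Acaca, the cytosolic acetyl-CoA carboxylase, averaged 2635 ± 232 in KO and 2870.4 ± 157 in WT libraries (log2 fold change -0.13, SE 0.0629, limma adjusted p = 0.152). Acacb, the carboxylase at the mitochondrial outer membrane, averaged 39.8 ± 13.7 in KO and 58.1 ± 14.2 in WT libraries (log2 fold change -0.55, SE 0.255, limma adjusted p = 0.126, 95% interval -1.10 to 0.01). Acacb was the member with the lowest fold change among those not called, and limma called it after quantile normalization or without KO library 1. Fasn again differed little in the survival arm (log2 fold change -0.10, 95% interval -0.39 to 0.18), as did Acaca (-0.15, -0.31 to 0.02). Acacb was at -0.56 in that arm (95% interval -1.13 to 0.01, limma adjusted p = 0.58).

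The stearoyl-CoA desaturases Scd1 and Scd2, which introduce the double bond that turns stearate into oleate, were called in opposite directions in acute KO spleens. Scd1 had 176, 340.0, 247 and 275 normalized counts in acute KO libraries 1 to 4, against 145 at the lowest, 149 at the median and 167 at the highest in acute WT libraries. Every KO library was above every WT library, with KO library 1 only just so and KO library 2 highest. Scd1 rose by 1.65-fold (log2 fold change 0.72, SE 0.153, limma adjusted p = 0.00406), but was not called without KO libraries 2 and 3 (0.53, limma adjusted p = 0.0582). With the host-cell score as a covariate it was -0.08 (SE 0.365) and not called. Scd2 had 10623, 10318, 11290.1 and 10973 in KO libraries, against 12400.0 at the lowest, 14091 at the median and 14793 at the highest in WT libraries, and every KO library lay below every WT library. Scd2 fell to 78.7% of WT (log2 fold change -0.35, SE 0.0582, limma adjusted p = 0.00104). After scaling to Trbc1 and Trbc2 it was 0.03 and not called (SE 0.105, limma adjusted p = 0.823). At the endpoint Scd1 had 91.5, 92.9, 95.2, 115 and 101 in survival KO libraries 1 to 5, against 122, 147, 118, 166 and 152 in WT libraries 1 to 5. Here each KO library was below each WT library, the reverse of the acute order, though limma did not call it over all genes (log2 fold change -0.49, SE 0.133, limma adjusted p = 0.267, unadjusted p = 0.00259). Such a separation in the survival arm was seen for 1 of 32 members (3.12%) and 2.01% of all genes tested. Scd2 averaged 12717 ± 1541 in survival KO and 13753 ± 519 in survival WT libraries, with overlap (log2 fold change -0.12). Scd1 and Scd2 have near copies, Scd3 (3.51 to 5.48 in acute KO, 3.90 to 8.26 in acute WT libraries) and Scd4 (8.90 to 28.8 in acute KO, 15.1 to 27.5 in acute WT libraries), and how shared reads were split between them was not tested.

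**Figure D2:**
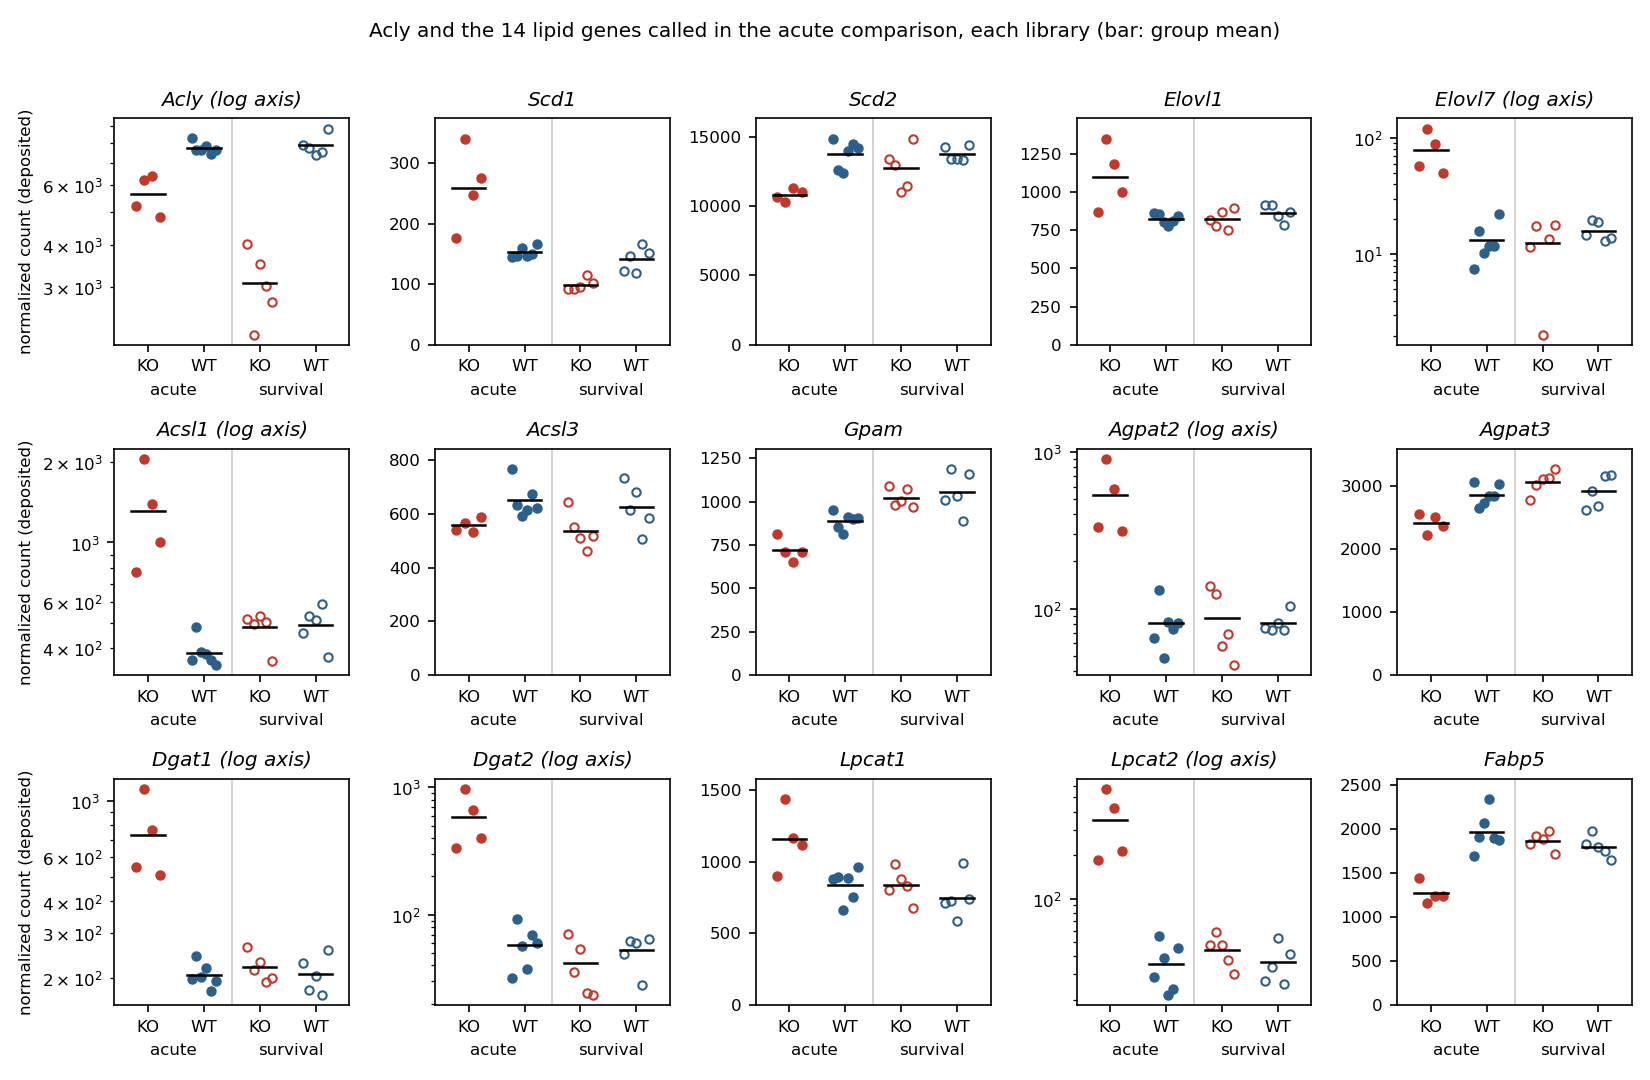
DESeq-normalized count in each library for Acly and the 14 members called in the acute comparison, with filled points for the acute arm and open points for the survival arm, KO in red left of WT in blue, and a bar at each group mean (linear axes start at 0, log axes are marked). Acute KO points lie above all acute WT points for Scd1, Elovl1, Elovl7, Acsl1, Agpat2, Dgat1, Dgat2 and Lpcat2 and below them for Acly, Scd2, Acsl3, Agpat3 and Fabp5. Of the lower ones, Scd2, Acsl3 and Agpat3 have positive fold changes, not called, after scaling to Trbc1 and Trbc2. Survival KO points separate from survival WT points for Acly and Scd1.

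Of the 4 elongases tested, Elovl7 and Elovl1 were called, both higher in acute KO spleens. Elovl7, an elongase of long-chain acyl-CoA, had 57.6, 119.6, 88.4 and 49.9 normalized counts in acute KO libraries 1 to 4, against 7.41 at the lowest, 11.8 at the median and 22.2 at the highest in acute WT libraries. The lowest KO library was 2.25 times the highest WT library. Elovl7 rose by 5.57-fold (log2 fold change 2.48, SE 0.327, limma adjusted p = 0.000215). At the endpoint it was low in both groups, with 11.6, 17.3, 2.05, 13.6 and 17.7 in survival KO libraries and 14.5, 19.5, 18.9, 13.0 and 13.9 in survival WT libraries. Elovl1, which makes saturated and monounsaturated very-long-chain acyl-CoA, had 865, 1345, 1179.9 and 999.7 in acute KO libraries and 774 at the lowest, 825 at the median and 860.3 at the highest in acute WT libraries. KO library 1 was just above the highest WT library and KO library 2 the highest of all. Elovl1 rose by 1.32-fold (log2 fold change 0.40, SE 0.102, limma adjusted p = 0.0116), and without KO libraries 2 and 3 the change was 0.18 and not called (limma adjusted p = 0.147). Elovl1 averaged 822 ± 58.6 in survival KO and 863 ± 54.8 in survival WT libraries, with overlap. Elovl6, which lengthens palmitate to stearate, averaged 363 ± 22.7 in acute KO and 371 ± 19.2 in acute WT libraries (log2 fold change -0.03, 95% interval -0.19 to 0.12). Elovl5, an elongase of polyunsaturated chains, averaged 3473 ± 309 in acute KO and 3773 ± 139 in acute WT libraries (log2 fold change -0.12, SE 0.0574, limma adjusted p = 0.126). Elovl2, Elovl3 and Elovl4 did not pass the filter. Elovl2 spanned 4.92 to 8.91 in acute KO and 0.98 to 21.2 in acute WT libraries, Elovl3 2.71 to 11.6 and 0.85 to 3.51, and Elovl4 1.64 to 6.35 and 2.95 to 30.6, in the same order of groups. WT library 1 held the highest value of Elovl2 and Elovl4.

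None of the 3 front-end desaturases was called. Fads2 and Fads1, which catalyse successive desaturations on the way from linoleic to arachidonic acid, had log2 fold changes of -0.05 (95% interval -0.19 to 0.08) and -0.05 (-0.18 to 0.08) in the acute arm. Survival values were -0.12 (-0.33 to 0.09) and -0.01 (-0.18 to 0.15). Fads1 averaged 1308 ± 123 in acute KO and 1349 ± 31.7 in acute WT libraries. Fads2 averaged 1742 ± 168 in acute KO and 1804 ± 60.8 in acute WT libraries. Fads3, a related desaturase, was uneven among acute KO libraries, with 25.9, 72.3, 97.5 and 26.9 in KO libraries 1 to 4 and 37.8 to 70.6 in WT libraries, so that KO libraries 2 and 3 lay above and KO libraries 1 and 4 below all WT libraries.

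Among the long-chain acyl-CoA synthetases, Acsl1 rose and Acsl3 fell in acute KO spleens. Acsl1, which is prominent in fat, liver and activated macrophages, had 776, 2061, 1399.7 and 999.9 normalized counts in acute KO libraries 1 to 4, against 347 at the lowest, 371 at the median and 479.8 at the highest in acute WT libraries. All KO libraries were above all WT libraries, with KO library 2 the highest and KO library 1 the lowest of the KO group. Acsl1 rose by 3.18-fold (log2 fold change 1.67, SE 0.214, limma adjusted p = 0.000177). At the endpoint it had 515, 493, 529, 503 and 359.5 in survival KO libraries and 457, 531, 512, 587 and 372 in survival WT libraries, with overlap and a log2 fold change of -0.03 (95% interval -0.32 to 0.26). Acsl3, which is found on the endoplasmic reticulum and lipid droplets, had 539, 568, 533 and 589 in acute KO and 592 at the lowest, 627 at the median and 767 at the highest in acute WT libraries. The highest KO library was just below the lowest WT library. Acsl3 fell to 86% of WT (log2 fold change -0.22, SE 0.0764, limma adjusted p = 0.0467), but this call sat at the threshold: it was lost in 8 of the 10 fits that left out 1 library, at adjusted p up to 0.124. After scaling to Trbc1 and Trbc2 the change was 0.16 and not called (SE 0.129, limma adjusted p = 0.331). Acsl3 averaged 538 ± 68.0 in survival KO and 625 ± 88.2 in survival WT libraries, with overlap (log2 fold change -0.21, 95% interval -0.45 to 0.03). Acsl4, which favours arachidonic acid, averaged 1151 ± 60.2 in acute KO and 1139 ± 97.4 in acute WT libraries. Acsl5 averaged 4024 ± 227 in acute KO and 3817 ± 219 in acute WT libraries, and Acsl6 spanned 33.9 to 90.4 in acute KO and 30.6 to 85.2 in acute WT libraries. None of these 3 was called, with acute log2 fold changes of 0.02 for Acsl4, 0.08 for Acsl5 and 0.13 for Acsl6.

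The acylation of glycerol 3-phosphate to phosphatidic acid was split as well. Gpam, the mitochondrial enzyme of the first step, had 814, 711, 653 and 712 normalized counts in acute KO libraries 1 to 4, against 814 at the lowest, 903 at the median and 955 at the highest in acute WT libraries. KO library 1 lay just inside the WT range and the other KO libraries below it. Gpam fell to 81.1% of WT (log2 fold change -0.30, SE 0.0692, limma adjusted p = 0.0063). It was not called after scaling to Trbc1 and Trbc2 (0.07, SE 0.104, limma adjusted p = 0.58) or without KO libraries 2 and 3 (-0.22, limma adjusted p = 0.0925). Agpat2, which adds the next acyl chain and whose loss causes generalized lipodystrophy in humans, had 333, 903, 577 and 311 in acute KO and 48.7 at the lowest, 77.4 at the median and 132 at the highest in acute WT libraries. The lowest KO library was 2.36 times the highest WT library. Agpat2 rose by 6.2-fold (log2 fold change 2.63, SE 0.314, limma adjusted p = 0.000109). Its KO values were uneven in the survival arm, 140.4, 125, 58.0, 68.7 and 43.9 in KO libraries 1 to 5 against 75.6, 72.7, 81.0, 73.0 and 104 in WT libraries 1 to 5, with KO libraries on both sides of the WT group. Agpat3, a related acyltransferase of the endoplasmic reticulum and Golgi, had 2560.3, 2216, 2515 and 2369.8 in acute KO and 2657 at the lowest, 2847 at the median and 3055 at the highest in acute WT libraries, without overlap. Agpat3 fell to 84.4% of WT (log2 fold change -0.25, SE 0.0562, limma adjusted p = 0.00639). It was not called after scaling to Trbc1 and Trbc2 (0.13, SE 0.0979, limma adjusted p = 0.286) or without KO libraries 2 and 3 (-0.21, limma adjusted p = 0.0545). Its survival means were 3059 ± 179 in KO and 2914 ± 259 in WT libraries. Agpat1, which catalyses the same step as Agpat2, averaged 1247 ± 96.7 in acute KO and 1130.2 ± 83.6 in acute WT libraries and was not called (log2 fold change 0.14, SE 0.0691, limma adjusted p = 0.144). The lipins Lpin1 and Lpin2, which turn phosphatidic acid into diacylglycerol, had acute log2 fold changes of -0.02 (95% interval -0.21 to 0.17) and -0.02 (-0.14 to 0.10).

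Both enzymes of the last step of triglyceride synthesis were higher in acute KO spleens, and Dgat2 had the highest fold change of the 32 members. Dgat2 had 333, 969, 660.3 and 398 normalized counts in acute KO libraries 1 to 4, against 31.6 at the lowest, 58.5 at the median and 92.4 at the highest in acute WT libraries. KO libraries 2 and 3 were the highest, and the lowest KO library was still 3.61 times the highest WT library. Dgat2 rose by 9.75-fold (log2 fold change 3.29, SE 0.336, limma adjusted p = 4.71e-05). At the endpoint it had 70.3, 35.5, 54.1, 24.3 and 23.5 in KO and 49.7, 62.3, 59.7, 28.4 and 64.1 in WT libraries, with KO libraries 4 and 5 below all WT libraries and KO library 1 above them. Dgat1 had 546, 1111, 769.5 and 508 in acute KO and 177 at the lowest, 199 at the median and 245 at the highest in acute WT libraries, again without overlap. Dgat1 rose by 3.4-fold (log2 fold change 1.77, SE 0.189, limma adjusted p = 5.63e-05). Dgat1 had 264, 215, 230.4, 193 and 199.5 in survival KO and 229.6, 179, 202, 171 and 257 in survival WT libraries, and the groups overlapped.

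Of the lysophosphatidylcholine acyltransferases, Lpcat2 and Lpcat1 rose in acute KO spleens. Lpcat2, which also makes platelet-activating factor in inflammatory cells, had 185, 571, 426 and 212 normalized counts in acute KO libraries 1 to 4, against 21.6 at the lowest, 33.8 at the median and 55.1 at the highest in acute WT libraries. The lowest KO library was 3.36 times the highest WT library. Lpcat2 rose by 9.06-fold (log2 fold change 3.18, SE 0.351, limma adjusted p = 6.84e-05). It had 47.9, 58.8, 47.5, 37.7 and 30.2 in survival KO and 27.0, 33.6, 53.6, 25.9 and 41.2 in survival WT libraries, with overlap. Lpcat1, best known for surfactant phosphatidylcholine in the lung, had 899.6, 1433, 1164 and 1118 in acute KO and 662 at the lowest, 879.8 at the median and 959 at the highest in acute WT libraries. Only KO library 1 fell within the WT range. Lpcat1 rose by 1.37-fold (log2 fold change 0.45, SE 0.128, limma adjusted p = 0.0182), and without KO library 2 alone it was not called (0.34, limma adjusted p = 0.06). Its survival means were 834 ± 113 in KO and 749 ± 147 in WT libraries. Lpcat3, which puts polyunsaturated chains on phosphatidylcholine, averaged 1210.2 ± 161 in acute KO and 1099 ± 55.4 in acute WT libraries, with KO libraries 2 and 3 above all WT libraries, and was not called (log2 fold change 0.13, SE 0.0792, limma adjusted p = 0.239).

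Fabp5, a cytosolic carrier of fatty acids, had the lowest fold change of the 32 members in acute KO spleens. It had 1446, 1155, 1234 and 1242 normalized counts in acute KO libraries 1 to 4, against 1694 at the lowest, 1902 at the median and 2335 at the highest in acute WT libraries. All KO libraries were below all WT libraries. Fabp5 fell to 64.8% of WT (log2 fold change -0.63, SE 0.0866, limma adjusted p = 0.000294). It was the single member still called lower after scaling to Trbc1 and Trbc2 (-0.25, limma adjusted p = 0.0254). At the endpoint Fabp5 had 1825, 1916, 1879.9, 1977 and 1718 in survival KO and 1828, 1973, 1794, 1752 and 1649 in survival WT libraries, with overlap.

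The 9 higher members shared an order among KO libraries. KO library 2 was the highest KO library for 9 of 9, KO library 3 the second for 8, and the lowest was KO library 1 for 6 and KO library 4 for 3. The host-cell score had KO library 2 highest, KO library 3 next and KO library 1 lowest. Among WT libraries, library 2, with the highest WT score, was the highest for 5 of the 9. Of the 5 lower members, WT library 1, with the lowest score, was the highest WT library for 4 and the lowest for 1, Fabp5. It was also the highest WT library for Fasn, Acaca and Srebf1, which were not called. How often all genes follow these orders was not tested. Without KO libraries 2 and 3, 8 of 31 tested members were still called (background 12.9%): Elovl7, Acsl1, Agpat2, Dgat1, Dgat2 and Lpcat2 higher, and Scd2 and Fabp5 lower. Scd1 (0.53, limma adjusted p = 0.0582), Elovl1, Acsl3, Gpam, Agpat3 and Lpcat1 were then not called. With the score as a covariate, the fold changes were 0.49 for Dgat2, 0.34 for Lpcat2, 0.55 for Agpat2, 0.69 for Elovl7, 0.45 for Dgat1 and -0.05 for Acsl1. They were -0.08 for Scd1, -0.29 for Elovl1, -0.07 for Lpcat1, 0.08 for Gpam and 0.04 for Agpat3, each with its sign turned, and -0.34 for Fabp5, -0.12 for Scd2 and -0.06 for Acsl3, each with its sign kept. None of these changes was called in that fit. The score itself separated acute KO from acute WT libraries without overlap, so in that fit the genotype and the score can barely be told apart. The part of other cell types in these changes was not tested further.

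**Figure D3:**
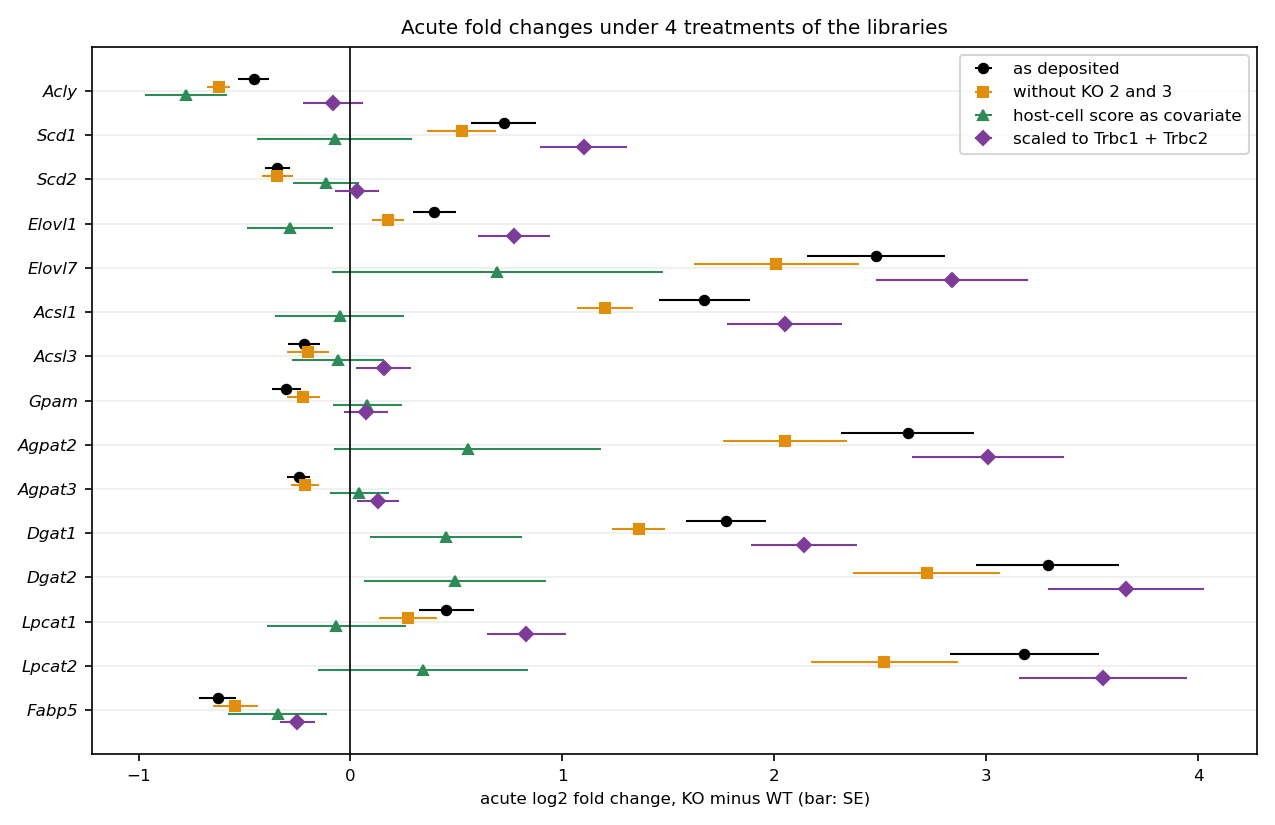
Acute log2 fold change, KO minus WT, with its SE for Acly and the 14 called members in 4 fits: as deposited, without KO libraries 2 and 3, with the host-cell score as a covariate, and scaled to Trbc1 plus Trbc2. The 6 members with rises of at least 2-fold were picked in the fit as deposited, and the scaling moved the median of all genes up by 0.37. Those 2 fits therefore had to place them right of 1. Without KO libraries 2 and 3 the 6 members also lie right of 1, and with the covariate between -0.05 and 0.69. Scd2, Acsl3, Gpam and Agpat3 change sign with the scaling, to values that were not called.

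**Figure D4:**
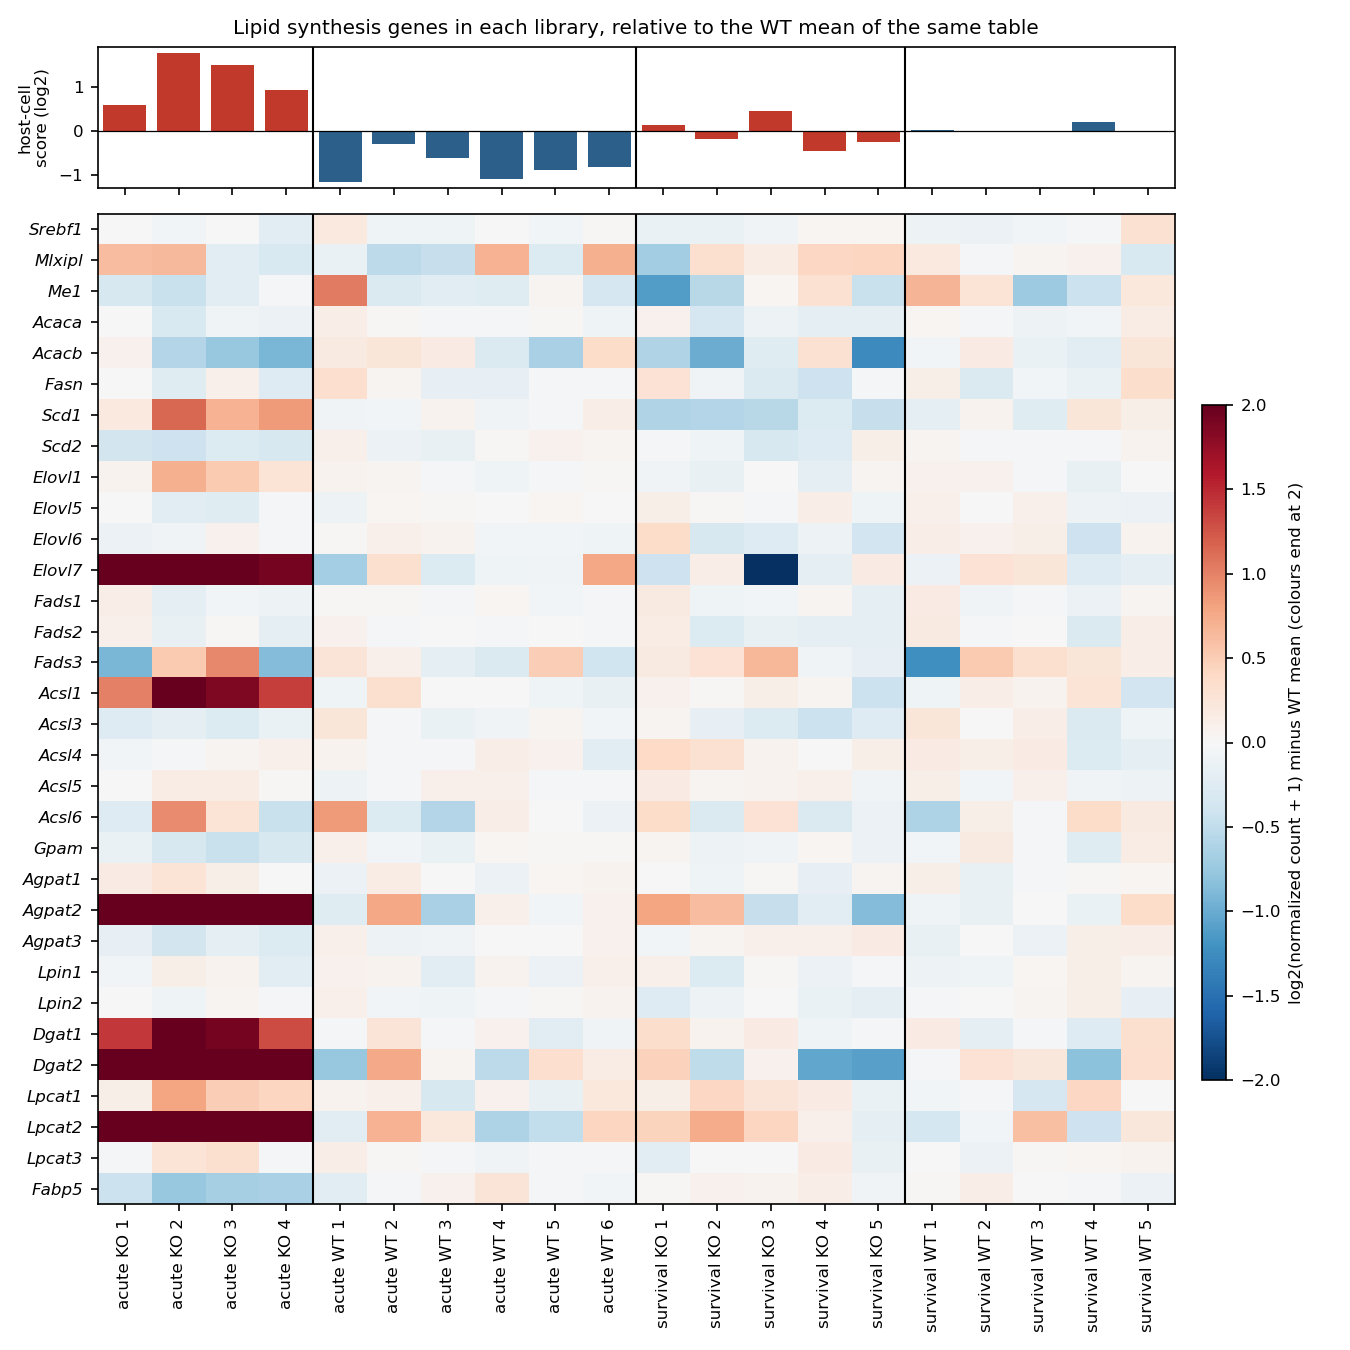
Log2(normalized count + 1) of the 32 tested members in each of the 20 libraries, minus the WT mean of the same table (colours end at 2 in either direction), under bars of the host-cell score, KO red and WT blue. Elovl7, Acsl1, Agpat2, Dgat1, Dgat2 and Lpcat2 are red in acute KO libraries 1 to 4, where the score is 0.606 to 1.77, and no such block is seen in the survival KO libraries.

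In the survival arm, where Acly RNA was lower in KO spleens than in WT spleens by a wider margin, the lipid genes differed little. limma called 0 of the 32 tested members (background 0.0124%, 2 of 16136 genes), and 1 member, Scd1, had an unadjusted p under 0.05 (background 8.74%). Scd1 was also the single member whose groups did not overlap (background 2.01%). The median log2 fold change was -0.04 over the 32 members and 0.01 over all genes tested, with 22 members below 0 and 10 above. The 95% interval lay within 2-fold in either direction for 28 of the 32, the exceptions being Me1, Acacb, Elovl7 and Dgat2. A p over the threshold does not show that the groups were alike.

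The survival effect was then set against the acute effect (each KO minus WT within its own table), a test of the difference itself over 20 libraries. limma called 10 of 32 members (31.2%, background 20.2%): 8 had a lower effect in the survival arm (background 10.9%), 7 of them by at least 2-fold (background 6.4%), and 2 a higher one (background 9.39%). Dgat2 had a log2 fold change of -0.41 in the survival arm and 3.29 in the acute arm (difference -3.70, SE 0.497, limma adjusted p = 3.93e-05). For Lpcat2 these were 0.30 and 3.18 (difference -2.88, SE 0.445, limma adjusted p = 0.000131). Elovl7, Agpat2, Acsl1 and Dgat1 differed in the same direction, by -3.03, -2.66, -1.70 and -1.67. Scd1 had negative and positive effects that limma called different (-0.49 in survival, 0.72 in acute, difference -1.22, SE 0.201, limma adjusted p = 0.00024). Elovl1 differed by -0.47 (limma adjusted p = 0.0116), a call lost without acute KO libraries 2 and 3 (-0.25, limma adjusted p = 0.148). The 2 higher effects in survival were those of Fabp5 (0.05 in survival, -0.63 in acute, difference 0.68, limma adjusted p = 0.000155) and Agpat3 (0.07 in survival, -0.25 in acute, difference 0.32, limma adjusted p = 0.0149). Without acute KO libraries 2 and 3 the difference for Agpat3 was not called either (0.29, limma adjusted p = 0.0856), and 8 of 31 members were (background 8.19%). After scaling to Trbc1 and Trbc2 the difference for Agpat3 was -0.14 and that for Fabp5 was 0.22, neither called. With the score as a covariate 0 of the 32 differences were called (3 at an unadjusted p under 0.05). In that fit 1 of all 15673 genes was called (828 at an unadjusted p under 0.05). Fasn, Acaca, Acacb and Srebf1 had differences of -0.01 (95% interval -0.39 to 0.37), -0.02 (-0.23 to 0.19), -0.02 (-0.81 to 0.77) and 0.01 (-0.21 to 0.24).

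Other genes of the same pathways, 95 symbols in 10 lists, were read beside the 35. In the acute arm 86 were tested and 27 called, 15 higher and 12 lower, which is 31.4%, as over all genes. Scaling to Trbc1 and Trbc2 moved the median of all genes up by 0.37, so it is no check on the 15 higher genes, which stayed positive. Of the 12 lower ones, Acly, Cyb5a and Ndufab1 stayed below 0 after it. The other 9, among them Acss2 (0.11), Trib1 (0.01), Hacd3 (0.13), Acsf3 (0.10) and Lclat1 (0.18), were above 0. None of these 12 was then called. NADPH suppliers rose in 3 of 5: G6pdx, the entry enzyme of the pentose phosphate pathway, averaged 5426 ± 2379 in KO and 1569 ± 135 in WT libraries (log2 fold change 1.69, SE 0.214, limma adjusted p = 0.000162), Pgd followed at 0.96 and the cytosolic isocitrate dehydrogenase Idh1 at 0.87. Of 4 genes of acetyl-CoA supply, Acly and Acss2 were lower: Acss2, which makes acetyl-CoA from acetate, averaged 482 ± 44.8 in KO and 579 ± 50.3 in WT libraries (log2 fold change -0.26, SE 0.0837, limma adjusted p = 0.0309). Lipogenic regulators were split 3 and 3 among 17 tested, with Rxra, the partner of LXR receptors, at 0.87, Mid1ip1, an activator of acetyl-CoA carboxylase, at 0.66 and Trib1 at -0.36. In a list of elongation cycle and cytochrome b5 genes, 1 of 8 tested rose (Hacd2, 0.40) and 3 fell, among them the cytochrome b5 electron donor Cyb5a (-0.41) and the elongation dehydratase Hacd3 (-0.25). Mitochondrial fatty acid synthesis had 2 of 7 lower, the acyl carrier protein Ndufab1 (-0.38) and Acsf3 (-0.27), and 0 higher. Other glycerolipid assembly had 2 of 11 higher and 2 lower, with the monoacylglycerol acyltransferase Mogat2 averaging 88.6 ± 32.0 in KO and 13.4 ± 7.54 in WT libraries (log2 fold change 2.70, SE 0.372, limma adjusted p = 0.000284), Lpgat1 at 0.65 and Lclat1 at -0.20. Of 13 genes of phosphatidylcholine and phosphatidylethanolamine synthesis 1 rose, Pcyt1a, which encodes the regulated enzyme of the choline pathway (0.56). So did 2 of 7 of phosphatidylinositol and cardiolipin synthesis, Cds2 at 0.24 and Cds1, with both group means under 50, at 2.17. Also higher were 2 of 4 other lysophospholipid acyltransferases (Mboat7 at 0.70, Lpcat4 at 0.38). Of 10 genes of fatty acid uptake and binding 1 was higher, the acyl-CoA synthetase and transporter Slc27a4 (1.23). Of 85 tested in the survival arm 1 was called, Acly itself.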

How the data were processed

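Polyadenylated RNA of leukemic spleens was sequenced from 20 strand-specific libraries, per the labels' protocols. The authors deposited 2 gene-level tables (acute and survival) whose values are a signal, DESeq-normalized counts with a column for each library, and each table was normalized separately. The authors used kallisto 0.46.0, DESeq and build GRCm39, per the submitters' processing notes. Annotation and filters: not given in the sources used here. Values were not whole, and 56.0 to 81.9% of low values lay within 0.1 of a step from a whole multiple, so whole reads were not recovered and the depth in reads is unknown. All columns of per-sample values were used, with samples matched by the names in the labels.

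Log2(normalized count + 1) was fitted with limma 3.58.1 (R 4.3.3; lmFit, eBayes with a mean-variance trend, 2-sided, group means) within each table. Genes with a value of at least 10 in 4 (acute) or 5 (survival) libraries were tested, with Benjamini-Hochberg adjustment over all of them and calls under 0.05. The survival minus acute effect came from 1 fit to the 20 libraries, for genes that passed in both tables. Acly was also compared by an exact 2-sided permutation test. The fits were tested on simulated data with independent genes, set fold changes in some of them and no shift of host cells. That test cannot speak to calls made where such a shift is present.

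Alternatives were pseudocounts of 0.5 and 5, no filter or a minimum of 50, quantile normalization, scaling to Trbc1 plus Trbc2, no trend, robust eBayes, the host-cell score as a covariate, the replicate number as a block, each library left out in turn, and acute KO libraries 2 and 3 left out together. Members, gene lists, markers and tests were chosen with earlier results of these data known. Members are given in every library where limma called them or the groups did not overlap, and otherwise by means or ranges. Other pathway genes are named where called with a group mean of at least 50, up to 3 per list by the size of the change. Cds1, called below that mean, is named as well. Promoter motifs and figures were made with Python 3.11.15 and matplotlib 3.10.9. No gene coordinates on the files' build are given.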

Additional observations from a re-analysis of the deposited data

Results flagged for a closer look

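Single libraries stood far from the rest of their group for 9 members, 12 times in 144 groups of 4 to 6 libraries, where chance alone gives about 1 in 20. Acute WT library 1 was the one most often apart: it had the highest value for Me1 (37.0 normalized counts), Elovl4 (30.6), Fads2 (1922) and Acsl6 (85.2), and the lowest for Elovl5 (3498). Acute WT library 2 had the highest Acsl1 of its group (480 normalized counts). In the survival arm, KO library 2 stood apart for Elovl4 (8.2), KO library 1 for Fads2 (2002) and KO library 5 for Acsl1 (360), each among KO libraries. Among survival WT libraries, library 5 was high for Srebf1 (2656) and Agpat2 (104), and library 4 was low for Elovl6 (268).

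The KO effect differed between the arms by limma's test of the survival minus acute log2 fold change for Acly and 10 members. The difference was -0.92 for Acly, -1.22 for Scd1, -0.47 for Elovl1, -3.03 for Elovl7, -1.7 for Acsl1, -2.66 for Agpat2, -1.67 for Dgat1, -3.7 for Dgat2, -2.88 for Lpcat2, 0.32 for Agpat3 and 0.68 for Fabp5. The host-cell score separated acute KO from acute WT libraries and did not separate the survival groups. With the score as a covariate, limma called 0 of the 32 differences and 1 of all 15673 genes. The difference for Dgat2 was -0.925, that for Lpcat2 -0.631, that for Acsl1 -0.188 and that for Elovl7 -3.22. In the acute arm the genotype and the score can barely be told apart, so this fit cannot decide between them.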

How the results depend on the processing

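The acute counts, 9 members higher and 5 lower, were 19 and 1 after scaling to Trbc1 and Trbc2 (44.9% and 0.56% of all genes). They were 0 and 0 with the host-cell score as a covariate, where 0 of 16363 genes were called. Without acute KO libraries 2 and 3 they were 6 and 2 of 31 (8.38% and 4.57% of all genes). Leaving out 1 library at a time gave 8 to 9 higher (12.6% to 17.5% of all genes) and 4 to 6 lower (9.55% to 15.7%). Acly in the acute arm was -0.0815 with the scaling and -0.775 with the covariate, neither called, and -0.519 to -0.383 with 1 library left out, always called. In the survival arm it was -1.48 to -1.26 and the count of members stayed at 0 to 0. The survival minus acute counts, 2 higher and 8 lower, were 0 and 21 of 32 with the scaling (0.369% and 44.0% of all 15699 genes). They were 0 and 0 with the covariate, where 1 of 15673 genes was called, and 1 and 7 of 31 without KO libraries 2 and 3 (2.49% and 5.7% of all genes). With 1 library left out they were 2 to 3 higher (5.65% to 10.9% of all genes) and 8 to 8 lower (8.77% to 12.2%). Signs turned in the acute arm with the covariate for Scd1 (-0.0753), Elovl1 (-0.287), Acsl1 (-0.0504), Lpcat1 (-0.0663), Gpam (0.0801) and Agpat3 (0.0425), and with the scaling for Scd2 (0.0305), Acsl3 (0.157), Gpam (0.0726) and Agpat3 (0.13). The difference between arms turned for Elovl1 with the covariate (0.0973) and for Agpat3 with the scaling (-0.141). None of the values with a turned sign was called. The cause was not tested. Over all genes, quantile normalization moved the acute calls to 2318 higher and 4145 lower, and the scaling to 7373 higher and 92 lower of 16436.

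Same-numbered KO and WT libraries deviated together only weakly (r = -0.0662 to 0.142 in the acute arm and -0.0204 to 0.128 in the survival arm). Weak correlations cannot show whether the replicate numbers pair the libraries. With the replicate block 13 acute members were called, all but Acsl3 (-0.219, limma adjusted p = 0.149), beside 20.1% of all genes (31.4% without it), 0 in the survival arm and 10 in the difference, beside 15.1% of all genes (20.2% without it), and the Acly fall was -0.477 in the acute and -1.38 in the survival arm.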
